A study of Saccharomyces cerevisiae with 8 samples.

Results

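The data described here are the 4 wild-type libraries, of 8 in the series, in which budding yeast grew with or without caffeine. Poly(A)+ RNA 3′ ends were read on the Helicos platform by direct RNA sequencing, which needs no cDNA copy, so that a read marks where an RNA molecule was cleaved and polyadenylated. The members were taken by their labels. Caffeine-treated wild type had 2 libraries and untreated wild type had 2, one of each in experiment 1 and in experiment 2. Both groups shared 1 genotype, per the labels: MAT alpha cells of the w303 strain with the nutritional markers ura3-1 and trp1-delta, with ade2-1 and with marker mutations in LEU2 and HIS3, in which pcf11-delta::TRP1 was covered by the plasmid pRS325-LEU2-V5-PCF11-MYC. The cells called wild type therefore lived on a tagged, plasmid-borne copy of PCF11, which encodes an essential subunit of the cleavage machinery. Cultures grew at 30 °C in YPAD, a rich glucose medium. The treated cultures received 20 mM caffeine and grew for 2 h more, so that time in culture and cell density cannot be told apart from caffeine. The other 4 libraries, of strains pcf11-13 and pcf11-dNL with and without caffeine, had 1 library per medium each and are used only for comparison. The pcf11-13 strain is MATa, per the labels, and so differs from wild type in mating type as well. The labels do not say that the libraries came from separate cultures. The p-values therefore weigh effects only against the scatter of these samples, and that scatter may be technical.

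Caffeine inhibits TORC1, the kinase complex that couples growth to nutrients. When TORC1 is active, cells make ribosomes and keep the genes for poor nitrogen sources silent. When it is inhibited, the GATA factors Gln3 and Gat1 enter the nucleus and the kinases Rim15 and Yak1 let the stress factors Msn2 and Msn4 act. Caffeine also signals through the cell wall integrity kinases. The 3′ end of an mRNA is set by cleavage factor IA, which includes Pcf11, and by the cleavage and polyadenylation factor, which together cut the nascent RNA and add the poly(A) tail. Cleavage before the stop codon gives a truncated RNA, and a shift among sites after the stop codon changes the length of the 3′ UTR.

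Sequencing depth differed along with the medium. The total count per library was 4413677 and 4410374 in caffeine, against 1070278 and 1631254 without it. In experiment 1 the URA3 gene and the genes of the 2-micron plasmid took 11.4% of counts in caffeine and 8.36% without it, and in experiment 2 they took 0.304% in caffeine and 0.368% without it. The labels give both experiments the same genotype, with ura3-1 and a LEU2 plasmid, and do not account for this difference. Without these genes 1865 genes were called for expression, against 1849 with them. The defining transcripts of the labelled mating type were present: the 5 MATalpha-specific genes summed to 925 and 615 CPM (counts relative to the library total, here without further scaling) in caffeine, against 2647 and 4740.1 CPM without it. The 7 MATa-specific genes summed to 206 and 296 CPM in caffeine, against 160 and 137 CPM without it, and the 16 genes of meiosis and sporulation to between 398 and 653 CPM over the 4 libraries. No gene of these 3 marker lists was at 0 in a wild-type library. In bulk RNA, fewer cells of a type and less RNA per cell cannot be told apart.

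**Figure D1:**
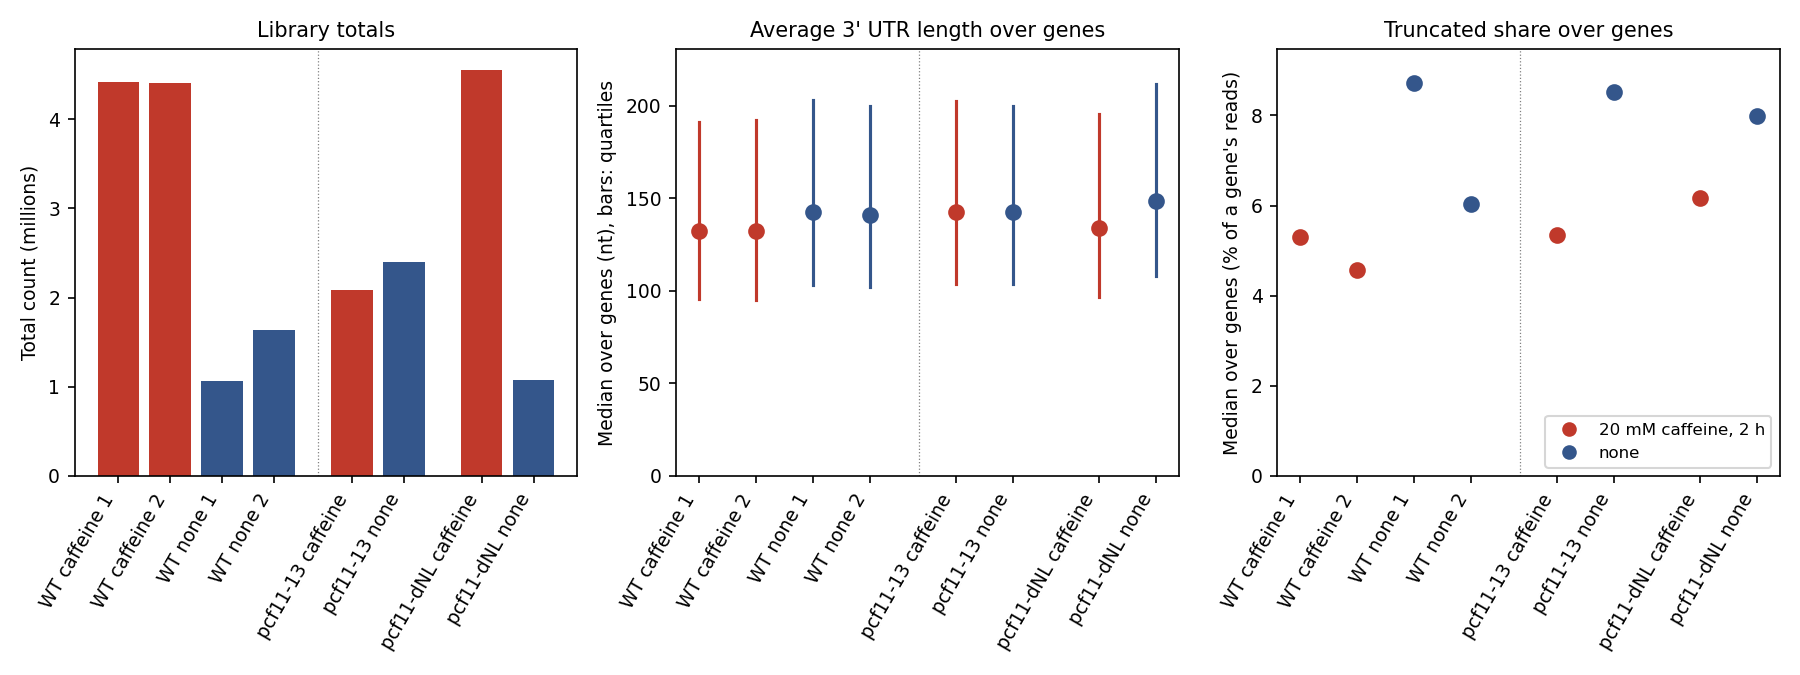
Total count per library, median 3′ UTR length over genes in nucleotides with bars from the lower to the upper quartile, and median percentage of truncated reads per gene, for each of the 8 libraries, with caffeine left of none in each strain. The 2 wild-type caffeine libraries were the deeper pair, with median lengths of 132.57 and 132.39 nucleotides, against 142.83 and 141.22 nucleotides without caffeine.

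Caffeine was followed by a rise of genes for poor nitrogen sources, amino acid breakdown, vacuolar proteolysis and the glyoxylate cycle, and by a fall of genes for ribosome assembly, mitochondrial ribosomes, histones and the separation of daughter cells. Levels of single genes below are CPM scaled by edgeR's TMM. Of 5849 genes tested with edgeR's quasi-likelihood test at a Benjamini-Hochberg adjusted p of 0.05, 1849 changed (31.6%), 1000 of them higher in caffeine (17.1%) and 849 lower (14.5%), and 2591 had an unadjusted p under 0.05. The log2 fold changes of experiments 1 and 2, caffeine over none, had the same sign in 2446 genes that were higher in both and 2228 genes that were lower in both. Both caffeine libraries lay above both untreated ones in 2181 genes (37.3%) and below them in 1978 (33.8%). Without the untreated library of experiment 2 there were 989 calls in all, and without the treated library of experiment 2 there were 1207. The median log2 fold change of all genes was 0.02, which stands beside the medians of the gene groups below. In the same way, the 17.1% of genes higher and 14.5% lower stand beside the count of each group.

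The genes for the use of allantoin and urea, nitrogen sources that yeast turns to when better ones are lacking, rose almost as a block: 10 of 11 were higher in caffeine, against 17.1% of all genes, with a median log2 fold change of 2.23. DAL5 (YJR152W, chromosome X 719666 to 721297, plus strand), the allantoate permease, had 1212 and 1308 CPM in caffeine, against 41.7 and 35.3 CPM without it. The treated libraries were each far above both untreated ones, and the log2 fold change was 5.04 ± 0.34 (SE, n = 2 each; edgeR adjusted p = 0.000717). DAL80 (YKR034W), the GATA repressor of the same genes, had 104 and 196 CPM in caffeine, against 22.8 and 8.49 CPM without it, and rose by 3.34 ± 0.48 on the log2 scale (edgeR adjusted p = 0.00284). DAL3, which encodes ureidoglycolate lyase, had 242 and 389 CPM in caffeine, against 73.4 and 40.5 CPM without it. The member that was not called was DAL81, the activator, at -0.17. This and the other gene lists and motifs were chosen with earlier results of these data known. Their counts and shares therefore describe the lists and do not test them. Of the 10 calls, 8 were made without the untreated library of experiment 2 and 8 without the treated one.

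The stretches upstream of these genes are shown because their promoters hold the core of the GATA factor site, GATAAG. It was searched on both strands in the 500 bases before each start codon, with coordinates and sequence from the RefSeq annotation of R64 (sacCer3), and was found in 11 of 11 promoters of the allantoin and urea genes. It was also found in 22.6% of all 5817 promoters, in 25.9% of those of genes that rose and in 20.6% of those of genes that fell. Each line gives 30 bases of the gene's own strand around the match closest to the start codon, with the match or its reverse complement in capitals. DAL5 had 3 matches, DAL80 had 3 and DAL3 had 5. The windows are chrX:719483-719512 (+), chrXI:506659-506688 (+) and chrIX:415637-415666 (-). A match describes these letters and is not a measured binding site.
DAL5: atacggctaataCTTATCattatctggttt
DAL80: accgatcctgggCTTATCtcgctgcattgt
DAL3: tcgctcttgatgCTTATCttgtagggcaaa

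Enzymes that release nitrogen from amino acids rose too, 11 of 13 with a median log2 fold change of 1.90, and 11 were called with each of the 4 libraries left out in turn. CHA1 (YCL064C), the serine and threonine deaminase, had 4484 and 4590.0 CPM in caffeine, against 106 and 256 CPM without it (log2 fold change 4.64 ± 0.61, edgeR adjusted p = 0.00218). ARO9, an aromatic aminotransferase, had 2224 and 4728 CPM in caffeine, against 159 and 201 CPM without it (4.27 ± 0.53, edgeR adjusted p = 0.0019). CAR1, the arginase, had 138 and 293 CPM in caffeine, against 10.9 and 18.9 CPM without it. In each of these 3 genes the groups did not overlap, and the lower treated library exceeded the higher untreated one. The member that fell was GLY1, the threonine aldolase that makes glycine, at -2.62, and ILV1 was at -0.05.

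Permeases for nitrogen compounds did not move as 1 group. Of 17, 4 rose and 6 fell, against 17.1% and 14.5% of all genes, with a median of -0.27. DIP5, the permease for glutamate and aspartate, had 909 and 482 CPM in caffeine, against 76.4 and 84.9 CPM without it (log2 fold change 3.11 ± 0.38, edgeR adjusted p = 0.00181). PUT4, the proline permease, and UGA4, the GABA permease, rose by 2.40 and 2.16, and OPT2 was called higher as well. Among those that fell were GNP1, a glutamine permease, at -1.94, MUP1, a methionine permease, at -1.88, and OPT1 at -1.81. GAP1, the general amino acid permease, was at -0.27 and was not called.

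Vacuolar proteases, which break down proteins delivered by autophagy, rose in 8 of 9 cases with a median of 1.95, and 7 were called with any 1 library left out. CPS1, a carboxypeptidase, had 1910.2 and 1475 CPM in caffeine, against 185 and 145 CPM without it (log2 fold change 3.36 ± 0.36, edgeR adjusted p = 0.00127). APE1, the aminopeptidase that is carried to the vacuole by the Cvt pathway, had 368 and 378 CPM in caffeine, against 57.6 and 32.7 CPM without it (3.07 ± 0.31, edgeR adjusted p = 0.00123). Both treated libraries lay above both untreated ones in these 2 genes. PAI3, the cytosolic inhibitor of the protease Pep4, is not a protease but is counted among these 9 and the 8 that rose, at 2.37. The member not called was APE3 at 0.64.

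Carbon metabolism showed a rise of the glyoxylate cycle and the carnitine shuttle, which carry acetyl units: 13 of 20 genes of the list rose and 0 fell in edgeR (0 in DESeq2), with a median of 1.21. The count was 10 without the untreated library of experiment 2. MLS1, malate synthase, had 253 and 367 CPM in caffeine, against 5.95 and 5.88 CPM without it (log2 fold change 5.70 ± 0.35, edgeR adjusted p = 0.000717). YAT1, a carnitine acetyltransferase, had 133 and 116 CPM in caffeine, against 5.95 and 6.53 CPM without it. The groups lay far apart in both genes, while ICL1, the other enzyme of the glyoxylate bypass, was at 0.44 and was not called. FBP1, a gluconeogenic enzyme, was at 0.10, and PCK1, another, was called higher at 1.13. In the tricarboxylic acid cycle the citrate synthase CIT3 was at 2.60 and the isocitrate dehydrogenase genes IDH1 and IDH2 at -1.47 and -1.51. Of 16 genes of this cycle 5 rose and 4 fell, against 17.1% and 14.5% of all genes. Without the untreated library of experiment 2 the split was 3 higher and 0 lower.

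The retrograde response links the state of mitochondria and nitrogen to nuclear genes. Its list split as well, with 4 of 10 genes higher and 3 lower, against 17.1% and 14.5% of all genes. PYC1, pyruvate carboxylase, had 555 and 703 CPM in caffeine, against 42.7 and 62.7 CPM without it (log2 fold change 3.57 ± 0.33, edgeR adjusted p = 0.00101). CIT2, the peroxisomal citrate synthase by which this pathway is usually followed, had 2854 and 3288 CPM in caffeine, against 248 and 1077 CPM without it. Its untreated values differed more from each other than its treated ones, and its rise of 2.21 ± 0.67 (edgeR adjusted p = 0.0388) had an adjusted p of 0.115 without the untreated library of experiment 1.

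Glycine cleavage and the one-carbon genes rose strongly in part: 6 of 13 were higher and 2 lower, with a median of 0.49. GCV2, the glycine decarboxylase subunit, had 504 and 649 CPM in caffeine, against 27.8 and 20.3 CPM without it (log2 fold change 4.60 ± 0.33, edgeR adjusted p = 0.000717). SHM2, the cytosolic serine hydroxymethyltransferase, had 1542 and 2728 CPM in caffeine, against 143 and 114 CPM without it (4.05 ± 0.44, edgeR adjusted p = 0.00136). Of 2 further members, the cytosolic MTD1 was higher at 3.03 and MIS1, a mitochondrial enzyme of the same pathway, lower at -1.15. Vitamin B6 synthesis showed a rise of similar size. SNZ1 (YMR096W) had 1661 and 2487 CPM in caffeine, against 63.5 and 63.4 CPM without it, and its divergent partner SNO1, whose start lies 448 bases away, had 299.9 and 350.3 CPM in caffeine, against 11.9 and 4.57 CPM without it. The log2 fold changes were 5.03 ± 0.43 and 5.39 ± 0.40 (edgeR adjusted p = 0.000926 and 0.000736). In the list of vitamin B6 and thiamine genes 8 of 17 rose and 1 fell, and 4 rose without either library of experiment 2. The paralogs SNZ2 and SNZ3, which are near-identical to each other, rose by 0.99 and 1.00 on the log2 scale (edgeR adjusted p = 0.0331 and 0.0323). They had nearly equal counts in every library, and how reads were shared between such copies is not stated in the sources used.

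Storage carbohydrate genes rose in 7 of 20 cases and 0 fell in edgeR (0 in DESeq2), with a median of 0.54. GPH1, glycogen phosphorylase, had 195 and 218 CPM in caffeine, against 37.7 and 40.5 CPM without it (log2 fold change 2.40 ± 0.25, edgeR adjusted p = 0.00125). TSL1, a subunit of trehalose synthase, and NTH1, the neutral trehalase that breaks trehalose down, rose by 2.14 and 2.05, so that genes of both synthesis and breakdown were higher. TPS1, the catalytic synthase subunit, was at -0.57 and was not called. The stress response element of Msn2 and Msn4, CCCCT on either strand, lay within 500 bases of the start codon in 16 of the 20 promoters (80.0%), against 34% of all promoters, 42.5% of those of genes that rose and 25.5% of those of genes that fell. The windows below, from RefSeq R64, show it in capitals (as CCCCT or as its reverse complement AGGGG) at chrXIII:70447-70476 (+) with 5 matches in the promoter and chrIV:452610-452639 (-) with 3.
TSL1: ggggtagaaccaAGGGGctagcacactcac
NTH1: ctagaaattttcCCCCTatcgttttccgta

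Few genes of the TORC1 pathway itself were called. Of 31 genes for the complex, its regulators and its effectors, 3 rose and 0 fell in edgeR (1 and 0 in DESeq2). Over all genes 17.1% rose and 14.5% fell in edgeR. The median of the list was 0.19. RIM15 (YFL033C), the kinase that is released when TORC1 is inhibited, had 446 and 747 CPM in caffeine, against 169 and 159 CPM without it (log2 fold change 1.86 ± 0.33, edgeR adjusted p = 0.00548). LST8, a TORC1 subunit, rose by 0.93 and MSN4 by 0.79 (edgeR adjusted p = 0.0424 and 0.0373). Their calls were fragile: LST8 had an adjusted p of 0.124 without the untreated library of experiment 1 and 0.0945 without the treated library of experiment 2. MSN4 had an adjusted p of 0.088, 0.121, 0.0728 and 0.163 when the libraries were left out in turn, in the order untreated and treated of experiment 1, then untreated and treated of experiment 2. None of the 15 genes of the vacuolar ATPase was called in edgeR or in DESeq2, and their median was -0.17.

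On the other side, genes for making ribosomes fell. In the small-subunit processome, which folds and cuts the first rRNA precursor, 24 of 36 were lower, against 14.5% of all genes, with a median log2 fold change of -1.06. Among assembly factors of the large subunit 36 of 51 were lower, with a median of -1.19. The medians were -0.44 and -0.59 in experiment 1 and -1.60 and -1.74 in experiment 2 for these 2 lists. Without the untreated library of experiment 2 the counts were 9 and 18, and without the treated library of experiment 2 they were 14 and 26. KRR1 (YCL059C), a processome factor, had 150 and 102 CPM in caffeine, against 525 and 712 CPM without it (-2.29 ± 0.31, edgeR adjusted p = 0.00248). NOG2 (YNR053C), a GTPase of the large subunit precursor, had 171 and 115 CPM in caffeine, against 745 and 1059.6 CPM without it (-2.66 ± 0.34, edgeR adjusted p = 0.00216). NOP1, fibrillarin, fell by 2.23 on the log2 scale. Both treated libraries lay below both untreated ones in these 3 genes.

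Their promoters are shown for the PAC element, GATGAG, and were also searched for the RRPE element, AAAATTT, on both strands. PAC was found in 31 of 36 processome promoters (86.1%) and 46 of 51 large-subunit promoters (90.2%), against 28.4% of all promoters. RRPE was found in 94.4% and 96.1% of them, against 34.2% of all. Among all genes that fell, 37.9% had PAC and 46.3% had RRPE, and among those that rose 24.4% and 26.2% did. The windows from RefSeq R64 lie at chrIII:23430-23459 (-), chrIV:427148-427177 (+) and chrXIV:723276-723305 (-), with PAC or its reverse complement in capitals.
KRR1: aaaaaaagagatGATGAGgttaactattgt
NOP1: caaattggaaagCTCATCtctcttgaatgt
NOG2: ttttgcccgatgCTCATCgcaaaaattttt

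Mitochondrial ribosomal proteins fell as broadly, 50 of 72 with a median of -1.03, although only 27.8% of their promoters held PAC and 22.2% held RRPE. MRP2, a small-subunit protein, had 58.1 and 52.0 CPM in caffeine, against 269 and 245 CPM without it (log2 fold change -2.22 ± 0.22, edgeR adjusted p = 0.00112). The count was 36 without the untreated library of experiment 2 and 35 without the treated one. Genes for protein import into mitochondria had 11 of 21 members lower, with the TIM10 chaperone subunit at -1.82. Of 137 cytosolic ribosomal protein genes 33 were lower, with a median of -0.69, and the count was 9 without the untreated and 7 without the treated library of experiment 2. Many of them come in near-identical pairs. Translation initiation factors had 10 of 28 lower and 1 higher, but 1 lower without either library of experiment 2.

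Among cell-cycle genes, many of those for the separation of daughter cells were called lower. In the list for separation of daughter cells 7 of 11 fell, against 14.5% of all genes, with a median of -1.31. AMN1, which daughter cells need to switch off the mitotic exit network, had 48.7 and 74.3 CPM in caffeine, against 261 and 316 CPM without it (log2 fold change -2.23 ± 0.27, edgeR adjusted p = 0.0018). PCL1 (YNL289W), a G1 cyclin of the Pho85 kinase, had 15.7 and 19.4 CPM in caffeine, against 455 and 214 CPM without it (-4.24 ± 0.40, edgeR adjusted p = 0.00103). Its untreated libraries differed from each other, and both lay far above the treated ones. Among G1 regulators 5 of 14 fell and 9 were not called. Among regulators of S, G2 and M phase 3 of 16 fell, which is close to the 14.5% of all genes. Without the untreated library of experiment 2 edgeR called 0 of these 16.

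**Figure D2:**
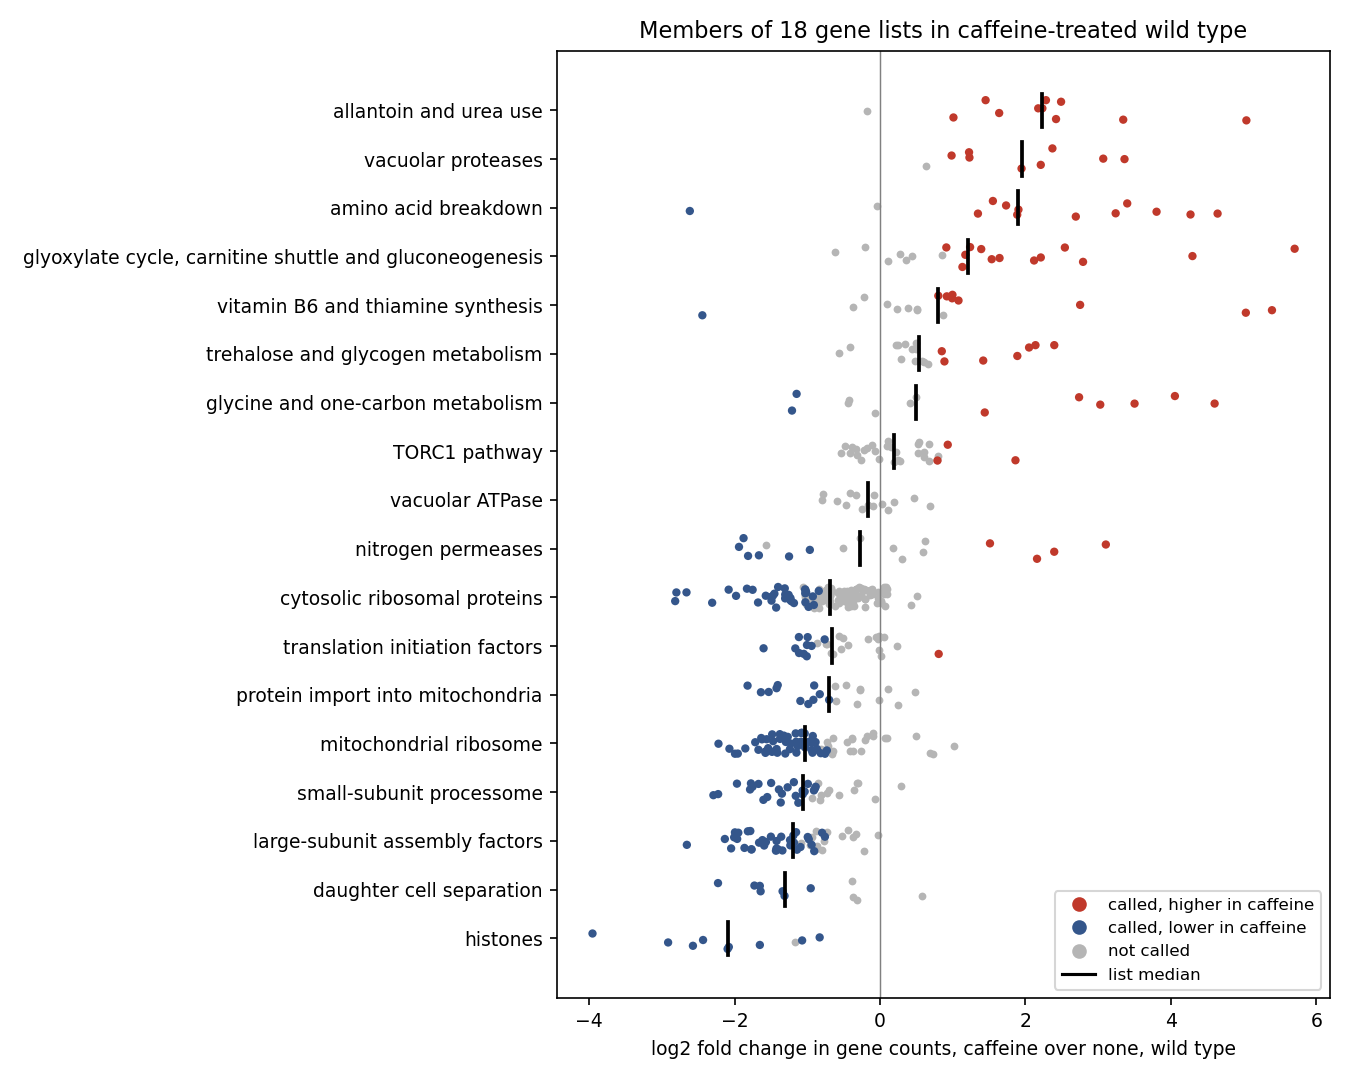
Log2 fold change of transcript counts, caffeine over none in wild type, for the members of 18 gene lists, with called genes in red (higher) or blue (lower), other genes in grey and the list median as a black bar. Allantoin and urea genes sit to the right with a median of 2.23, and large-subunit assembly factors to the left with a median of -1.19.

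Genes whose products make RNA 3′ ends moved unevenly, and PCF11 itself was not called. PCF11 (YDR228C, chromosome IV 921926 to 923806, minus strand) had 134 and 111 CPM in caffeine, against 205 and 109 CPM without it, and the groups overlapped (log2 fold change -0.36 ± 0.31, edgeR adjusted p = 0.408). Its truncated reads were 26.3% and 25.2% of its reads in caffeine, against 65.3% and 32.1% without it. Reads from the plasmid copy and from what remains of the locus cannot be told apart in these counts. NRD1 (YNL251C), an RNA-binding subunit of the complex that ends short non-coding transcripts, fell most in its list: 40.9 and 32.4 CPM in caffeine, against 306 and 193 CPM without it (-2.76 ± 0.29, edgeR adjusted p = 0.00127). Of the 8 genes of the Nrd1 complex and of termination by the exonuclease Rat1, 4 were lower and 0 higher in edgeR (3 and 0 in DESeq2), and 2 were lower when any library other than the untreated one of experiment 1 was left out. DIS3, the catalytic exosome subunit, had 96.2 and 85.8 CPM in caffeine, against 297 and 375 CPM without it (-1.89 ± 0.25, edgeR adjusted p = 0.00232).

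In the cleavage factors few members were called. HRP1, the subunit of cleavage factor IB, rose by 1.09 ± 0.30 (edgeR adjusted p = 0.0273), and most of its reads were truncated in every library: 81.3% and 77.1% in caffeine, against 66.6% and 74.7% without it. Its full-length reads alone gave 0.51 (adjusted p = 0.266). The call had an adjusted p of 0.123 without the untreated and 0.157 without the treated library of experiment 2. RNA15, a subunit of cleavage factor IA, was lower by 0.80 with an adjusted p of 0.0276, and its adjusted p lay between 0.0542 and 0.214 with any 1 library left out. In the core cleavage and polyadenylation factor, 1 of 9 genes was called, the endonuclease gene YSH1 at -0.90 ± 0.22 (edgeR adjusted p = 0.0176, and 0.103 without the treated library of experiment 1). None of the 6 genes of the APT complex was called in edgeR or DESeq2, with a median of -0.16.

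The 3′ UTRs of caffeine-treated cells were shorter on average by a few nucleotides. The deposited average 3′ UTR length had medians over genes of 132.57 and 132.39 nucleotides in caffeine, against 142.83 and 141.22 nucleotides without it, so that the libraries of the groups did not overlap. Per gene, over the 5165 genes that reached 20 counts in all libraries, the median change was -4.41 nucleotides, with -4.14 in experiment 1 and -4.19 in experiment 2. The length was lower in both experiments in 2773 genes (53.7%) and higher in both in 1029 (19.9%). Both caffeine libraries lay below both untreated ones in 2419 genes (46.8%) and above them in 794 (15.4%). Single genes rarely passed a test: limma called 2 genes (0.0387%), both shorter, and 1223 had an unadjusted p under 0.05. With any 1 library left out limma called 0 genes. Depth moved along with length: among all 8 libraries the 3 with the highest totals, the third being pcf11-dNL in caffeine with 4555751 counts, had the 3 shortest medians, and the part of depth in the shortening was not tested. In pcf11-13, whose libraries had 2088078 counts with caffeine and 2393801 without, the medians were 142.50 nucleotides in both.

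The 2 genes that passed were TRE2 and STB5, and STB5 is named after its values were seen. In edgeR the count of TRE2 was also called lower in caffeine, and that of STB5 was not called. TRE2 (YOR256C, chromosome XV 808254 to 810683, minus strand), which helps direct membrane transporters to the vacuole, had average 3′ UTR lengths of 176 and 165 nucleotides in caffeine, against 471 and 468 nucleotides without it. The gap between the groups was many times the gap within either of them, and the change was -299 ± 5.14 nucleotides (limma adjusted p = 0.0268). The adjusted p was 0.156 with experiment as a block and lay between 0.0842 and 0.39 with any 1 library left out, while the change remained between -305 and -294 nucleotides. STB5 (YHR178W), a zinc-cluster factor for genes of NADPH supply, had 191 and 187.0 nucleotides in caffeine, against 348 and 347 nucleotides without it (limma adjusted p = 0.0268). WSC3, a cell wall stress sensor, went the other way, with 737 and 750.1 nucleotides in caffeine, against 565 and 567 nucleotides without it, and limma did not call it for length (adjusted p = 0.0514).

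Shortening was not the same in all genes. Genes whose counts rose in caffeine had a median length change of -6.98 nucleotides (845 genes), genes whose counts fell had -2.38 (821 genes) and the rest had -4.53 (3499 genes). Ribosomal protein transcripts, which are abundant and have short 3′ UTRs, were shorter in both experiments in 110 of 137 genes, against 53.7% of all genes, with a median of -5.30 nucleotides. The arrangement of the downstream neighbour went along with the change. Genes that face a convergent neighbour had median changes of -8.90 nucleotides with a gap between coding regions under 150 nucleotides (796 genes), -6.96 at 150 to under 300 (1096 genes), -6.79 at 300 to under 600 (612 genes) and -4.27 at 600 or more (310 genes). Genes followed by a neighbour on the same strand had -2.47 (45 genes), -1.62 (580 genes), -2.92 (1040 genes) and -3.85 (653 genes) for the same gaps. In both experiments the convergent class with the smallest gap had a larger shortening than the median gene, -9.04 and -7.91 nucleotides. These medians are descriptions, and the sources used do not say whether reads were counted by strand.

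**Figure D3:**
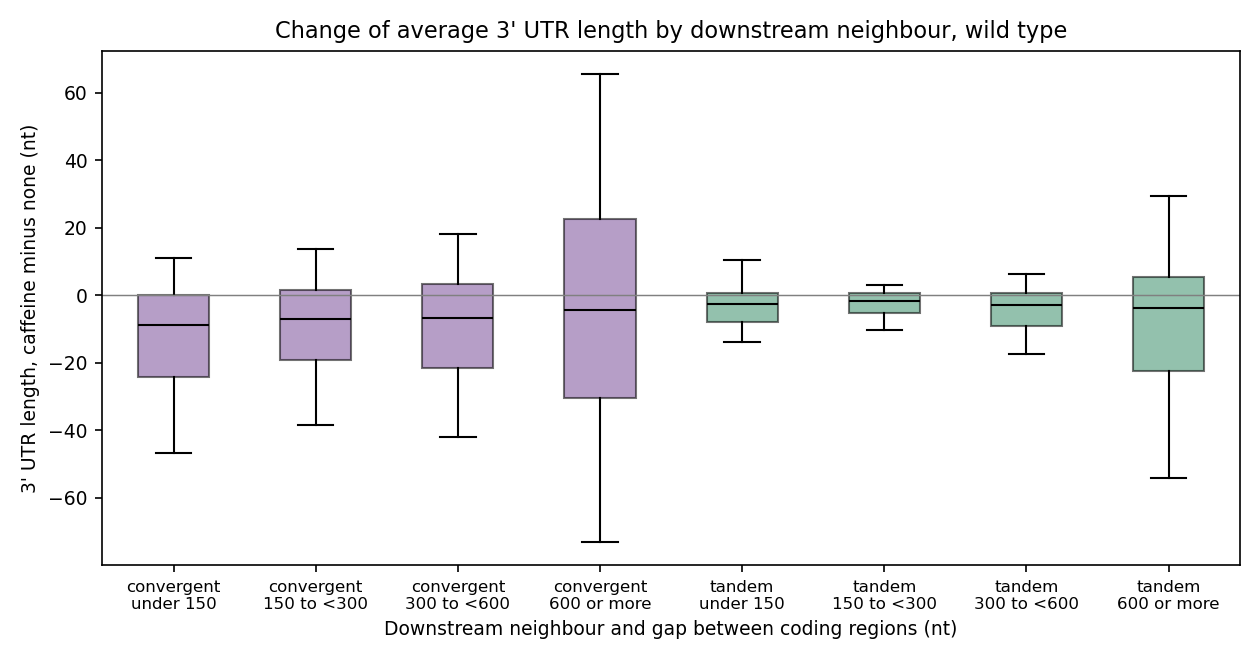
Change of the average 3′ UTR length, caffeine minus none in wild type, in nucleotides, by the orientation of the downstream neighbour and the gap to it in nucleotides. Boxes span the quartiles with the median as a line and whiskers run from the 10th to the 90th percentile. Convergent genes with a gap under 150 nucleotides had the lowest median of -8.90 nucleotides.

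Truncated reads, those that end before the 3′ UTR, had a lower median share over genes in caffeine, while their share of all reads overlapped between the groups. The median over genes of the truncated share was 5.30% and 4.57% in caffeine, against 8.73% and 6.02% without it, and the same order held in pcf11-13 (5.35% in caffeine, 8.53% without) and pcf11-dNL (6.16% in caffeine, 7.98% without). Summed over all reads, 10.1% and 8.42% were truncated in caffeine, against 10.4% and 7.80% without it, so that the groups overlapped. In 350 and 285 genes in caffeine, against 500 and 376 without it, more than 50% of reads were truncated. The share was lower in both experiments in 2546 of 5167 genes (49.3%) and higher in both in 1164 (22.5%). Both caffeine libraries lay below both untreated ones in 2069 genes (40%) and above them in 923 (17.9%). Limma on the deposited fraction called 0 genes, with 1021 at an unadjusted p under 0.05. A test on class counts (fraction times count, edgeR), added after seeing the data, called 478 of 5204 genes (9.19%), 370 lower (7.11%) and 108 higher (2.08%), with 1388 at an unadjusted p under 0.05. Its count depended on single libraries: it was 50, 289, 17 and 69 without the untreated or treated library of experiment 1 and the untreated or treated library of experiment 2. With experiment as a block it called 1033 genes, 825 of them lower.

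Genes with a called truncated share were more often called in the opposite than in the same direction for count. Both measures come from the same reads, so they are not independent. Of the 370 genes with a lower truncated share, 171 rose in count (46.2%) and 22 fell (5.95%). Of the 108 with a higher share, 53 fell in count (49.1%) and 8 rose (7.41%). Of the 4726 genes whose share was not called, 674 rose (14.3%) and 751 fell (15.9%). The scaled CPM of each gene was also split by its truncated share into full-length and truncated reads. For genes that rose, the median log2 change, on log2(CPM + 1), was 1.39 for full-length reads and 0.14 for truncated ones. For genes that fell these medians were -1.12 and -0.60, and over all genes 0.10 and -0.25. Most reads were full-length, so that choosing genes by count largely fixed the direction of that part. In genes that rose the median truncated share was 3.46% and 2.79% in caffeine, against 9.67% and 7.68% without it. The added 1 CPM draws the change of such scarce reads towards 0. A test of full-length reads alone called 1884 genes. Of these, 1628 were called in the same direction with all reads and 255 with full-length reads only. A single gene was called in opposite directions, NAB2, and is named after its values were seen. NAB2, a poly(A)-binding protein that limits its own mRNA, had 12.6 and 13.4 full-length CPM in caffeine, against 23.2 and 23.4 without it. Its truncated reads were at 32.3 and 40.0 CPM in caffeine, against 6.61 and 5.30 CPM without it. With all reads its log2 fold change was 0.75 (edgeR adjusted p = 0.048), and with full-length reads -0.89 (adjusted p = 0.0456). GPG1 ends 253 bases upstream of NAB2 on the same strand and was called higher in caffeine. Its part in the reads given to NAB2 was not tested.

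**Figure D4:**
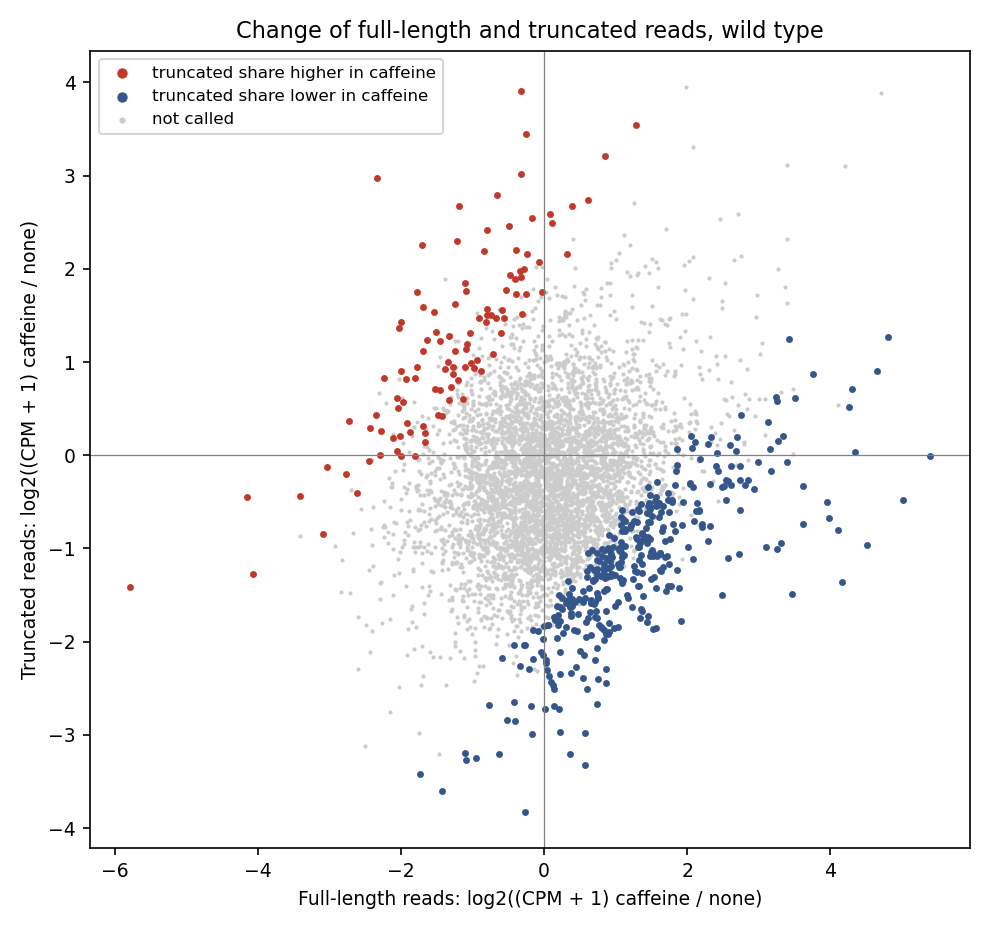
Log2 change of truncated reads against that of full-length reads, caffeine over none in wild type, each on log2(CPM + 1), 1 point per gene, with genes coloured where the class-count test called their truncated share. Genes with a lower share had a median full-length change of 1.10 and a median truncated change of -1.19.

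The lists of nutrient genes differed in how many truncated shares were called. The class-count test called a lower share in 3 of 10 allantoin and urea genes, 5 of 12 amino acid breakdown genes, 5 of 19 storage carbohydrate genes and 4 of 13 one-carbon genes, against 7.11% of all genes, and a higher share in none of these lists. Many genes of these lists rose in count, and of all tested genes that rose, 171 of 853 had a lower share and 8 a higher one. In the retrograde list 3 of 10 were lower. Nitrogen permeases had 3 of 17 lower and 1 higher, and the list of vacuolar proteases with PAI3 had 3 of 9 lower and 1 higher. Among the glyoxylate, carnitine and gluconeogenesis genes, of which 13 of 20 rose in count, the class-count test called 0 of 15 in either direction, with 7 at an unadjusted p under 0.05, and limma called 0. DAL5 had 1199.8 and 1302 CPM of full-length reads in caffeine, against 30.1 and 27.6 CPM without it. Its truncated reads were at 12.7 and 6.83 CPM in caffeine, against 11.5 and 7.65 CPM without it, so that they overlapped while full-length reads did not. The truncated share was 1.04% and 0.522% in caffeine, against 27.7% and 21.7% without it (adjusted p = 0.000715, and between 1.06e-05 and 0.0376 with any 1 library left out). PYC1 had 1.27% and 1.35% in caffeine, against 24.1% and 29.0% without it, and SHM2 0.401% and 0.178% in caffeine, against 9.54% and 6.74% without it. Among ribosomal protein genes 7 of 137 had a higher share and 1 a lower one, against 2.08% of all genes higher. Among histone genes, whose counts fell, 5 of 10 had a higher share. The calls of HTA2, HTB2 and HHF1 were each lost with any 1 library left out, with adjusted p-values of up to 0.162, 0.43 and 0.172.

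GCV1 (YDR019C, chromosome IV 484163 to 485365, minus strand), the T subunit of glycine decarboxylase, exchanged a mostly truncated output for a mostly full-length one. Its truncated share was 8.49% and 4.06% in caffeine, against 70.7% and 77.7% without it. Full-length reads were at 566 and 1078 CPM in caffeine, against 36.1 and 30.7 CPM without it, while truncated reads were at 52.5 and 45.7 CPM in caffeine, against 87.0 and 107 CPM without it. The 2 kinds of read thus moved in opposite directions, and no library of one group reached the range of the other in either kind. The count of all reads rose by 2.74 on the log2 scale and that of full-length reads by 4.55 (edgeR adjusted p = 0.00108). The change in share had an adjusted p of 0.000375, and between 4.13e-07 and 0.0376 with any 1 library left out. Nearly all of its truncated reads lay in the authors' proximal region, with 8.13% and 3.66% of reads in caffeine, against 70.3% and 77.2% without it.

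VPS60, a subunit of the membrane-remodelling ESCRT machinery, had no call in its count, and its full-length reads alone gave 0.50 (edgeR adjusted p = 0.144). It had a truncated share of 8.85% and 8.35% in caffeine, against 67.5% and 45.3% without it (adjusted p = 0.00218, and between 0.00093 and 0.0376 with any 1 library left out). Its full-length reads were at 50.4 and 51.0 CPM in caffeine, against 30.7 and 37.5 CPM without it, and its truncated reads at 4.89 and 4.65 CPM in caffeine, against 63.6 and 31.1 CPM without it. PDE1, a cyclic AMP phosphodiesterase, had a share of 10.3% and 6.0% in caffeine, against 43.9% and 55.3% without it, but its truncated reads stayed at 35.3 and 21.9 CPM in caffeine, against 38.3 and 22.4 CPM without it. Its call had an adjusted p of 0.0567 without the untreated library of experiment 2. DEF1 (YKL054C), which promotes degradation of stalled RNA polymerase II and is listed among genes with known early ends, fell in both kinds of read. Its truncated reads were at 44.8 and 42.5 CPM in caffeine, against 394 and 456 CPM without it, and its full-length reads at 171 and 112 CPM in caffeine, against 312 and 231 CPM without it. Its share was called lower at an adjusted p of 0.0165, which lay between 0.066 and 0.131 with any 1 library left out.

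A smaller set of genes went towards truncated RNA. ODC2 (YOR222W, chromosome XV 758330 to 759253, plus strand), a mitochondrial carrier for oxodicarboxylates, had a truncated share of 82.9% and 83.0% in caffeine, against 17.3% and 24.2% without it. Its truncated reads were at 1712 and 1615 CPM in caffeine, against 86.4 and 139 CPM without it. Full-length reads were at 352 and 329.7 CPM in caffeine, against 414 and 436 CPM without it, so that nearly all of the added reads were truncated. The count of all reads was called higher at 1.90 ± 0.38 (edgeR adjusted p = 0.00866, and 0.0507 without the untreated library of experiment 2), whereas full-length reads gave -0.39 (adjusted p = 0.284). The change in share had an adjusted p of 0.0013, and between 0.00107 and 0.0376 with any 1 library left out. YHR140W, whose product is not characterised, had 49.7% and 63.3% in caffeine, against 1.30% and 5.20% without it (adjusted p = 0.000715, and between 4.51e-07 and 0.0376 with any 1 library left out).

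IPA1, an essential gene needed for cleavage and polyadenylation, had the same count in both media and a different mix. All its reads summed to 57.1 and 50.2 CPM in caffeine, against 52.6 and 52.3 CPM without it. The truncated share was 74.2% and 78.3% in caffeine, against 30.5% and 21.3% without it, and the groups did not overlap. Full-length reads fell by 1.69 on the log2 scale (edgeR adjusted p = 0.00595). The change in share had an adjusted p of 0.00406, and 0.0551 without the untreated library of experiment 2. BRR6, a nuclear envelope protein, had 75.6% and 77.2% in caffeine, against 39.5% and 17.6% without it (adjusted p = 0.00613, and 0.0697 without the untreated library of experiment 2). PDE1 ends 170 bases upstream of BRR6 on the same strand and rose by 2.49, and its part in the reads given to BRR6 was not tested.

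DBP2 (YNL112W), an RNA helicase with a long intron that limits its own level, had a truncated share of 57.7% and 72.0% in caffeine, against 19.7% and 18.4% without it. Its truncated reads were at 153 and 152 CPM in caffeine, against 147 and 287 CPM without it, and overlapped, while full-length reads were at 112 and 58.9 CPM in caffeine, against 599 and 1276 CPM without it. The change in share had an adjusted p of 0.00569, which was 0.0538, 0.058 and 0.13 without the untreated libraries of experiments 1 and 2 and the treated library of experiment 2. PWP2, a processome protein, had 69.4% and 72.0% in caffeine, against 36.4% and 22.5% without it, with an adjusted p of 0.00909, and 0.0738 and 0.0977 without the untreated and the treated library of experiment 2. MXR1, a methionine sulfoxide reductase, had 74.9% and 64.3% in caffeine, against 25.1% and 20.1% without it, with an adjusted p of 0.00527, and 0.0588 without the untreated library of experiment 2. In 32 genes more than 50% of reads were truncated in both caffeine libraries and fewer in both untreated ones, and in 80 genes the reverse held.

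**Figure D5:**
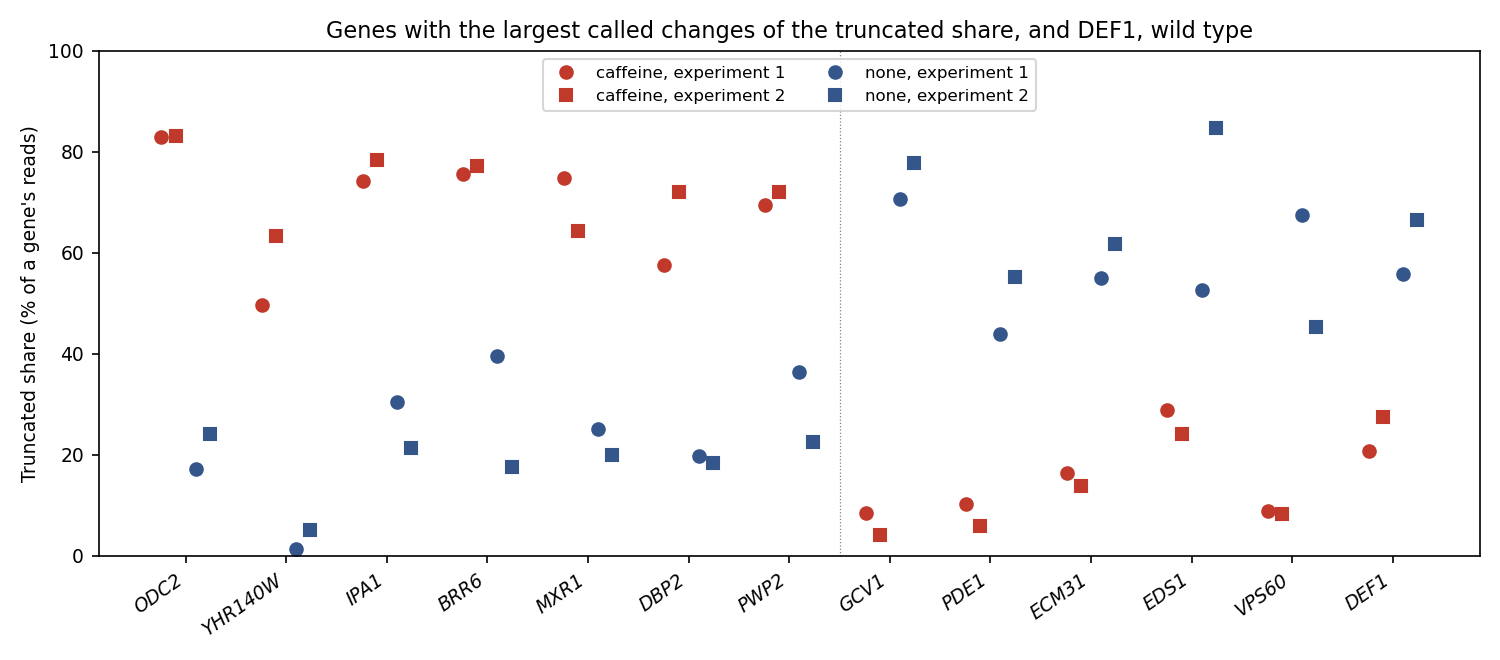
Truncated reads as a percentage of all reads, for 13 genes in the 4 wild-type libraries, caffeine left of none, 1 point per library. The first 7 genes had higher shares in caffeine, with ODC2 at 82.9% and 83.0% in caffeine against 17.3% and 24.2% without it, and the other 6 had lower ones, with GCV1 at 8.49% and 4.06% in caffeine against 70.7% and 77.7% without it.

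The proximal measure, a part of the truncated reads whose bounds the sources used do not state, changed little over all genes. Its median over genes was 0.368% and 0.382% in caffeine, against 0.359% and 0.343% without it. Both caffeine libraries lay below both untreated ones in 29.6% of genes and above them in 20.3%. Limma called 3 genes (0.0581%), 2 lower (0.0387%) and 1 higher (0.0194%), and 840 had an unadjusted p under 0.05. After an arcsine transform it called 151, 111 higher and 40 lower. With any 1 library left out of the untransformed fit it called 0. RPN4, the activator of proteasome genes, had 2.89% and 3.02% of its reads there in caffeine, against 15.4% and 15.5% without it (limma adjusted p = 0.0254). PBI1 had a fraction of 0.0559 and 0.0566 in caffeine, against 0.10022 and 0.10015 without it. DPH2, a diphthamide synthesis gene named after its values were seen, had a fraction of 0.0368 and 0.0365 in caffeine, against 0.000131 and 5.62e-05 without it. The 2 values of each group were very close in these 3 genes, and with experiment as a block limma called none of them. Class counts called 116 of 4552 genes (2.55%), 69 lower (1.52%) and 47 higher (1.03%), with 655 at an unadjusted p under 0.05, and 0 without either untreated library.

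Most genes called in wild type moved the same way in the mutants, but some lists moved little in pcf11-13. Each mutant is set here against wild type of its own experiment, which was 1 for pcf11-13 and 2 for pcf11-dNL. The small-subunit processome had a median log2 fold change of -0.038 in pcf11-13, against -0.44 in wild type, and -0.88 in pcf11-dNL, against -1.60. Large-subunit assembly factors had -0.041, against -0.59, and -1.19, against -1.74. Allantoin and urea genes had 0.46, against 1.93, and 2.26, against 2.47. Amino acid breakdown had 1.65, against 1.78, and 1.98, against 2.10. Histones had -1.66, against -2.40, and -1.62, against -1.82. These list differences were not tested. Genes that rose in wild type had a median log2 fold change of 1.22 in pcf11-dNL, with 979 of 1000 above 0, and of 0.48 in pcf11-13, with 833 above 0. Over all genes 50.7% were above 0 in pcf11-dNL and 50.1% in pcf11-13. Genes that fell had medians of -1.11 in pcf11-dNL, with 5 of 849 above 0, and of -0.41 in pcf11-13, with 167 above 0. These mutants had 1 library per medium, in experiment 2 for pcf11-dNL and in experiment 1 for pcf11-13. In the comparison of pcf11-13 with wild type, the PCF11 allele and mating type cannot be told apart. The genes were chosen on wild-type values, so that a smaller median elsewhere is no test. The difference from wild type was tested gene by gene. edgeR called 0 genes for either mutant (0 of 5849), with 826 at an unadjusted p under 0.05 for pcf11-13 and 128 for pcf11-dNL, and DESeq2 called 42 and 3. With the treated library of experiment 1 left out of wild type edgeR called 177 and 13, and without that of experiment 2 it called 71 and 3. GPG1, a proposed partner of the G-protein subunit Gpa2, had 127 and 185 CPM in caffeine, against 5.95 and 9.80 CPM without it in wild type (log2 fold change 4.25 ± 0.35), and a log2 fold change of 0.16 in pcf11-13. The difference of -4.09 ± 0.53 had an adjusted p of 0.14 (edgeR).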

How the data were processed

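The 4 wild-type libraries were grouped by the labels, and the comparison is caffeine against none. The deposited tables cover 5933 genes in 8 libraries. The first holds expected counts per gene as estimated by the authors, without normalization, of which 9.72% are whole within 1e-06. The others hold an average 3′ UTR length in nucleotides computed by the authors (a score, for its lack of a fixed range), the deposited fraction of truncated reads per gene, and a deposited proximal fraction, per the file headers. A length listed at -1 (40 values in 5 genes) was missing. The 63 fractions of genes without reads equal the authors' pooled value and are removed by the count minimum. Per the submitters' processing notes, coordinates are on sacCer3. For the aligner, the counting rules and strand, the entry is "not given in the sources used here". Of the gene identifiers 5919 matched RefSeq R64 and 14 did not.

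Rounded counts went into edgeR 4.0.16 under R 4.3.3 (TMM, filterByExpr, glmQLFit, glmQLFTest, 6 group means over 8 libraries, Benjamini-Hochberg adjustment, threshold 0.05). Mutant groups have 1 library each, so the spread comes from the wild-type pairs. The poly(A) measures went into limma 3.58.1 for genes that reached 20 counts in all libraries (5167, or 5165 for length). The files turned out to allow class counts, fraction times count, which were tested with edgeR in the 4 wild-type libraries, added after seeing the data. DESeq2 1.42.0 was an alternative. Levels of single genes are TMM-scaled CPM, sums over marker lists are unscaled CPM, and errors are standard errors. On data simulated for caffeine against none, edgeR recovered 30.2% of genes changed by 1 and 98.9% of those changed by 2 on the log2 scale among 5838 genes. With binomial noise, limma recovered 39% of truncated fractions changed by 0.2 among 5167 genes. With negative binomial noise, class counts recovered 62.8% among 5137. The noise differed, so that the recoveries of limma and class counts cannot be compared. No effect of experiment on the share was simulated.

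The experiment number in the labels pairs the samples. Libraries of the same number deviated together, with a correlation over genes of 0.194 for log2 CPM, 0.291 for length, 0.312 for the truncated and 0.287 for the proximal fraction. The gene lists (49), motifs and members were chosen with earlier results of these data known. Genes named are PCF11, up to 3 called members per list with the largest change and any member called for a poly(A) measure, up to 8 called genes per direction and poly(A) measure, up to 8 per direction called for both counts and a poly(A) measure, and up to 5 per mutant with the smallest p for the difference. Other members are named with their values. Promoters are the 500 bases before the start codon. The depth of each library is its total count. Alternatives were other scaling, filters, tools, transforms, the experiment block, each library left out, full-length reads only, thinning to 1070278 counts and removal of the URA3 and 2-micron genes. Figures were drawn with matplotlib 3.10.9 in Python 3.11.15.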

Additional observations from a re-analysis of the deposited data

Results flagged for a closer look

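For 10 gene lists the median log2 fold change of counts, caffeine over none, had opposite signs in pcf11-13 and in both wild-type experiments, and for 2 lists in pcf11-dNL. The differences were not tested, each mutant has 1 library per medium, and members of a list are not replicates. The pcf11-13 strain is MATa and wild type MATalpha, per the labels. MATalpha-specific genes had a median of 0.77 in pcf11-13, against -1.12 and -2.68 in wild-type experiments 1 and 2. MATa-specific genes had -0.36, against 0.28 and 1.16 in wild type. Cytosolic ribosomal proteins had 0.33, against -0.26 and -1.06 in wild type, and translation initiation factors 0.010, against -0.30 and -0.96 in wild type. Aminoacyl-tRNA synthetases had 0.13, against -0.16 and -0.77 in wild type. The nuclear exosome and TRAMP list had 0.16, against -0.22 and -0.63 in wild type, and the Nrd1 and Rat1 list 0.014, against -0.55 and -0.76 in wild type. The TORC1 list had -0.025, against 0.11 and 0.43 in wild type. Cell wall sensors and kinases had -0.13, against 0.15 and 0.44 in wild type, and cell wall proteins -0.047, against 0.06 and 0.27 in wild type. In pcf11-dNL the list of poly(A) tail binding and length had 0.067, against -0.11 and -0.0019 in wild type, and the tricarboxylic acid cycle -0.029, against 0.45 and 0.54 in wild type.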

How the results depend on the processing

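The count of genes called for expression (1849) lay between 1422 and 1884 over 8 alternatives of scaling, filter, tool, libraries and reads. With 1 library left out it lay between 989 and 1759. With the replicate block (experiment number), which pairs the libraries, it was 1880. For 3′ UTR length (2 calls) there were 16 and 30 calls at minimums of 50 and 100 counts, 32 with a trend, 20 with wild type only, 0 on the log2 scale, 0 with the replicate block and 0 with any 1 library left out. For the truncated fraction (0 calls) the class counts gave 478, which became 1033 with the block, 218 at a minimum of 100, 318 after thinning and 17 to 289 with 1 library left out. For the proximal fraction (3 calls) there was 1 at a minimum of 100, 0 with the block and with any 1 library left out, 151 after an arcsine transform (111 higher, 40 lower) and 116 with class counts, which became 233 with the block, 77 at a minimum of 50, 48 after thinning and 0 to 48 with 1 library left out. The difference from pcf11-13 (0 calls) had 42 calls in DESeq2 and 0 to 177 with 1 library left out, and that from pcf11-dNL 3 and 0 to 13. The block changed no other count by more than 1.5 times. The cause of these moves was not tested.

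Among single genes 2329 values kept their direction and side of the threshold, 308 lost a call, 47 gained one and 27 changed sign. With 1 library left out, the log2 fold change ranged across 0 in PCF11 (-0.75 to 0.16), EGO4 (-0.052 to 0.21, with -0.01 without the treated library of experiment 2), IPA1 (-0.061 to 0.12), YJL206C (-0.18 to 0.50), EDS1 (-1.22 to 0.19), MAK21 (-0.27 to 0.28) and BTT1 (-0.54 to 0.85). With full-length reads only it changed sign in PCF11 (0.25), ODC2 (-0.39), IPA1 (-1.69), BRR6 (-0.92), BTT1 (-1.25), VPS60 (0.50), APS1 (0.42), ECM31 (0.71), EDS1 (0.85) and IRC3 (0.16), and after thinning in IPA1 (-0.049). The difference from pcf11-13 ranged from -0.075 to 0.19 in EGO4, and that from pcf11-dNL from -0.30 to 0.85 in MF(ALPHA)2. TRE2 ranged from -0.0086 to 0.117 in its truncated and from -6.26e-07 to 0.0035 in its proximal fraction. For proximal class counts PMD1 ranged from -1.98 to 2.36 and CHA1 from -3.29 to 1.08. Depth limits length and share in genes near 20 counts, and the caffeine libraries are the deeper ones.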
